A study of Mus musculus with 6 samples.

Results

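The mitochondrial ribosomal protein genes are the nuclear genes named Mrpl (large subunit) or Mrps (small subunit) followed by a number. They were taken by that name from the deposited gene table, without pseudogenes, which gave 78 of the 18180 genes. By symbol 49 were Mrpl genes and 29 were Mrps genes. The tail skin of mice was profiled by RNA-seq, with 3 libraries in each of 2 groups. Control libraries came from normal tails of Mettl3fl/fl;K14creERT2-/- mice, which carry the floxed alleles of the m6A methyltransferase gene Mettl3 and no Cre transgene. The other libraries, labelled cKO, came from spontaneously inflamed tail areas of Mettl3fl/fl;K14creERT2+/- mice. Tamoxifen was injected on 5 days in a row, and skin was taken 4 weeks later.

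The keratin 14 promoter drives the tamoxifen-activated Cre in basal keratinocytes, while RNA was taken from milled skin with all its cell types. Genotype and inflammation came together in these groups and cannot be told apart. The labels give no age, sex, strain or pooling, nor whether each library is a separate mouse. The p-values therefore measure only how far these libraries differ, and that spread may be technical.

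The mitochondrial ribosome translates the few membrane proteins that mitochondrial DNA encodes, all of them subunits of the respiratory chain and the ATP synthase. Its rRNAs come from mitochondrial DNA, but its proteins are made in the cytosol from nuclear genes and imported. Some of these proteins have bacterial counterparts, and others exist only in mitochondrial ribosomes. In skin the epidermis relies heavily on glycolysis, but its mitochondria supply reactive oxygen species and respiration that are known to affect keratinocyte differentiation.

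Promoters of these genes were searched for the motifs of factors known to act on mitochondrial genes. No single motif was found in most of them, and the most frequent, ETS, was found in 37.7% of the genes searched. RefSeq promoter windows of the GRCm38.p6 build, 250 bases before to 50 bases after the annotated start, were matched for 69 of the 78 genes. Their median GC content was 58.7%, against 52.7% over all promoters of the same length in the table. The stretches below show 4 members whose values are described further on, from 120 bases before the start to 30 after it, with motif matches in capitals. Mrpl12 and Mrpl36 had the largest rises of the large subunit, Mrpl45 carried the most matches to the NRF1 motif, and Mrpl52 had the highest level per length. Mrpl12 lies at chr11:120484517-120484666 (plus strand, capitals NRF1), Mrpl36 at chr13:73330889-73331038 (plus strand, capitals first an E-box and then YY1). Mrpl45 lies at chr11:97315596-97315745 (plus strand, capitals NRF1) and Mrpl52 at chr14:54426789-54426938 (plus strand, capitals ETS).
Mrpl12: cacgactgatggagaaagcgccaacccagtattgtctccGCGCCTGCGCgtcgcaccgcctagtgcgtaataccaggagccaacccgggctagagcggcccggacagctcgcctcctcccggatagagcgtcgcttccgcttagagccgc
Mrpl36: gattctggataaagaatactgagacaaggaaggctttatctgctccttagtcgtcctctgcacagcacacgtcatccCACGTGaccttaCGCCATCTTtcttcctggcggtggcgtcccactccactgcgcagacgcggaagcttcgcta
Mrpl45: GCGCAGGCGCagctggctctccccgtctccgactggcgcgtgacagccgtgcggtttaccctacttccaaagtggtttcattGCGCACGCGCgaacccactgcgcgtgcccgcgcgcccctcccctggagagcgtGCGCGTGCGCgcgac
Mrpl52: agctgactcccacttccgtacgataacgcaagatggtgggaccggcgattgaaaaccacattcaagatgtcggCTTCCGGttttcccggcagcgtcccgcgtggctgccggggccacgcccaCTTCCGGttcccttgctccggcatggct

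The motifs were searched as exact letters on both strands, and a match is a description of the letters, not of a bound site. The shares below are of genes, each counted once if any of its promoter windows held a match. The ETS motif CCGGAAG was found in 37.7% of the 69 members. It was found in 9.93% of all genes with a promoter in the table and 17.6% of the tested genes among them. ETS factors such as GABP are known regulators of nuclear genes for mitochondrial proteins. The YY1 motif AAGATGGCG was found in 11.6% of members, 1.64% of all genes with a promoter and 3.01% of the tested ones. The NRF1 motif, GCGCA and GCGC with any 1 base between them, was found in 18.8%, 5.19% and 9.96% of the same sets. NRF1 is a classic activator of nuclear genes for mitochondria. The E-box CACGTG, which MYC and related factors bind, was found in 7.25% of members, 8.09% of all genes with a promoter and 11% of the tested ones. Within the members, the ETS motif was found for 33.3% of 36 genes called higher in the libraries labelled cKO and for 42.4% of the 33 others. For NRF1 these shares were 19.4% and 18.2%, for YY1 16.7% and 6.06%, and for the E-box 8.33% and 6.06%. No test was made on these shares.

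Depth was even, at 35855880 to 37043849 counts per library. Of the genes in the table, 15061 passed a minimum count and were tested. By edgeR's quasi-likelihood test (Benjamini-Hochberg adjusted p under 0.05) the libraries labelled cKO were higher for 4637 genes (30.8%) and lower for 4607 (30.6%). Mettl3 itself rose from 10.7 ± 1.42 to 14.9 ± 0.832 CPM (counts per 1000000, SD, n = 3, log2 fold change 0.48, edgeR adjusted p = 0.000102). This direction is opposite to the label, and the libraries are therefore called by their label throughout. A count per gene does not show whether the floxed part was lost. Markers of several cell types moved between the groups. Summed neutrophil markers ran from 103 to 109 CPM in control and 3503 to 3563 CPM in the libraries labelled cKO (7 of 7 tested rose, of 10 listed). Most of that sum was S100a9 (53.4 to 2039 CPM) and S100a8 (43.5 to 1450 CPM), which inflamed keratinocytes are also known to make. Macrophage markers ran from 865.5 to 885.7 and 1253 to 1282 CPM (10 of 10 rose). Keratinocyte markers summed to 37740 to 38040 CPM in control and 67910 to 68580 CPM (7 rose and 2 fell of 10, median log2 fold change 0.33). Krt1 alone went from 2170 to 20490 CPM. Proliferation genes summed to 451.7 to 471 and 832 to 849 CPM (12 of 12 rose). Fibroblast markers summed to 11630 to 11750 and 16830 to 16880 CPM (9 rose and 1 fell of 10). Sebocyte markers went from 1869 to 1897 CPM down to 1018 to 1031 (9 of 10 fell), adipocyte markers from 839 to 846 down to 629 to 634 (9 of 10 fell) and red blood cell genes from 122 to 135 down to 74.3 to 75.4 (6 of 6 fell). Skeletal muscle markers summed to 18.7 to 26.2 and 28.2 to 45.2 CPM (2 of 9 tested rose, and from 0 to 4 with 1 library left out, 0 without control library 2). No marker was at 0 in all libraries. The part of these shifts in the results on the mitochondrial ribosomal protein genes was not tested. In skin as a whole, fewer cells of a type and less RNA per cell cannot be told apart.

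Most mitochondrial ribosomal protein genes rose, each by a modest amount. All 78 were tested, and 43 (55.1%) were called higher in the libraries labelled cKO, against 30.8% of all genes tested, while 5 (6.41%) were called lower, against 30.6%. The other 30 were not called. Calls in either direction were made for 61.4% of all genes tested. The median log2 fold change was 0.21, with quartiles at 0.017 and 0.356, beside 0.002 over all genes tested, and it was above 0 for 62 members. In 47 members (60.3%) every library labelled cKO was above every control library, against 32.6% of all genes, and in 7 (8.97%) every one was below, against 32.3%. The rises were 1.106- to 1.812-fold and the falls 1.087- to 1.221-fold.

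Rises of larger size came at about the background share. A called rise of at least 1.5-fold was found in 9 members (11.5%), beside 12.3% of all genes, and no member reached a called fall of that size, which 10.3% of all genes did. Summed over the 78 genes, the level went from 2272 ± 9.65 to 2646 ± 16.6 CPM (SD, n = 3), a ratio of 1.164. Their share of all counts was 0.2253% ± 0.000866 in control, against 0.2667% ± 0.00146 in the libraries labelled cKO. Counts per member and library ran from 156 to 3430, and the median coefficient of variation between libraries was 4.98% in control, against 4.89% in the libraries labelled cKO. With the biological coefficient of variation set to 20%, in place of the 5.34% seen here, 9 members were still called higher and none lower (at an unadjusted p under 0.05, 15 and 0). That share of calls over all genes was 12.2% higher and 10.2% lower.

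**Figure D1:**
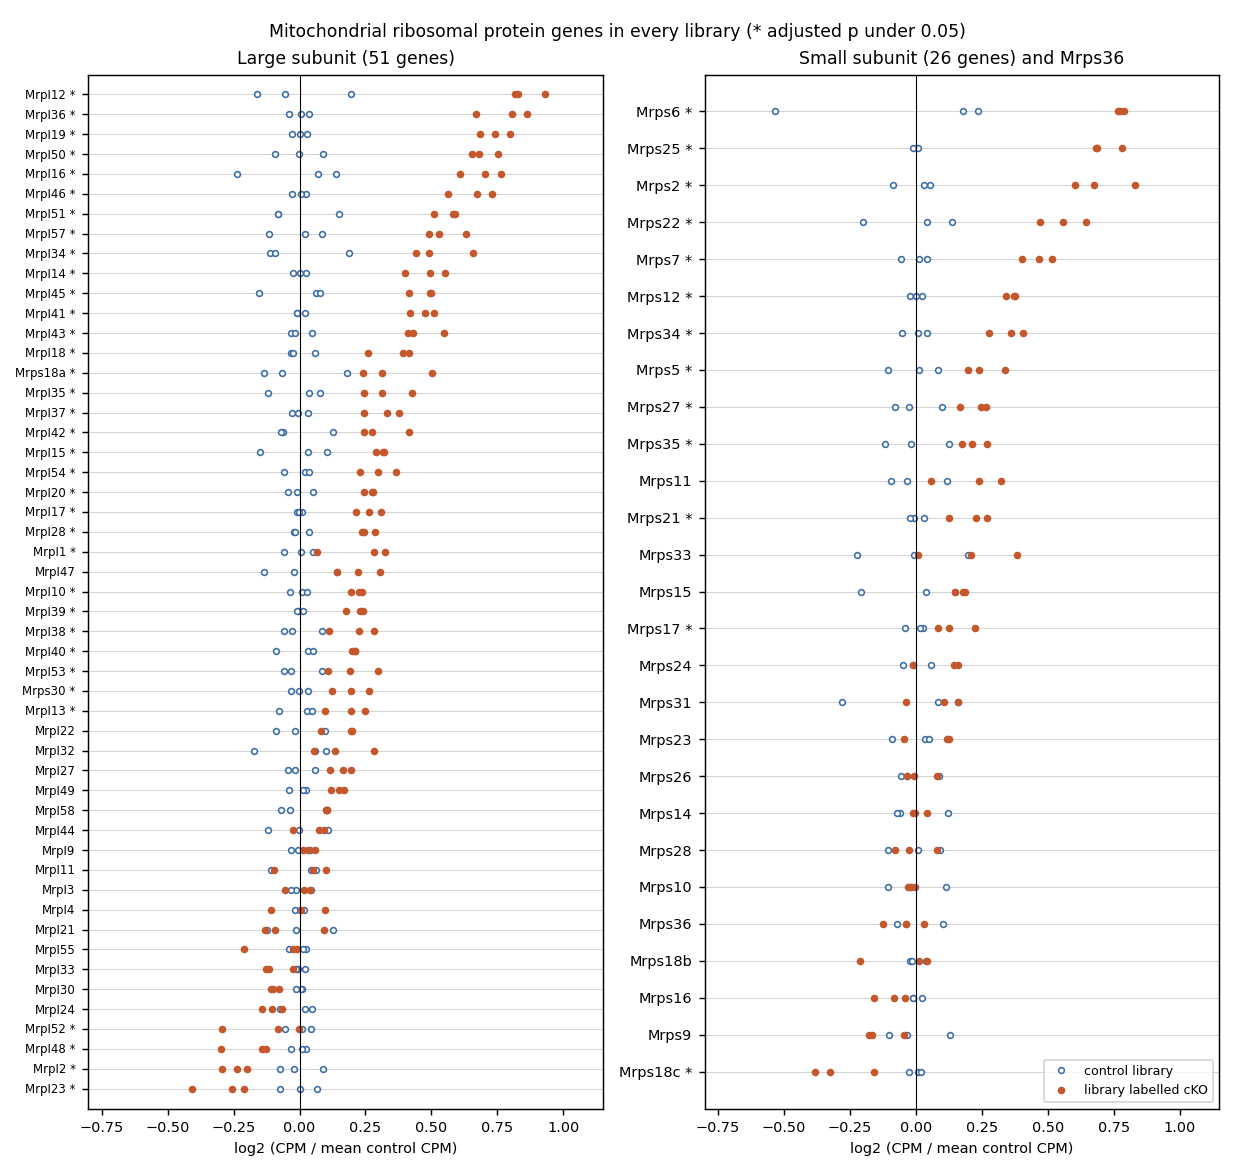
Each of the 78 genes in each library, as log2 of its CPM over the mean of the 3 control libraries (open circles, control; filled circles, labelled cKO), sorted by mean change within each subunit. An asterisk marks an adjusted p under 0.05; 43 starred genes lie to the right of 0 and 5 to the left.

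By structure the large subunit held 51 of the genes, since Mrps30 and Mrps18a are built into it in spite of their names, and the small subunit held 26. In the large subunit 31 rose, 4 fell and 16 were not called, with a median log2 fold change of 0.22 and 6 rises of at least 1.5-fold. In the small subunit 12 rose, 1 fell and 13 were not called, with a median of 0.19 and 3 such rises. The called rises were 60.8% of the large and 46.2% of the small subunit, against 30.8% of all genes tested. Calls lower were 7.84% and 3.85%, against 30.6% of all genes. Rises of at least 1.5-fold, found in 12.3% of all genes, were near that share in both subunits. Among the 46 proteins with bacterial homologues 22 rose and 3 fell (median 0.18), and among the 31 that are specific to mitochondria 21 rose and 2 fell (median 0.22). Within the large subunit these figures were 15 and 2 of 30 (median 0.20) for homologues and 16 and 2 of 21 (median 0.30) for mitochondria-specific proteins. Within the small subunit they were 7 and 1 of 16 (median 0.16), and 5 rises with no call lower among 10 (median 0.21). Mrps18a and Mrps18b were counted as mitochondria-specific and Mrps18c as a homologue, although all 3 are related to bacterial protein bS18. The difference between these classes was not tested. With 1 library left out, the rises of the mitochondria-specific small-subunit proteins went down to 3 (without control library 2), the falls of the large subunit to 2 (without the second library labelled cKO, the mitochondria-specific ones then to 0), and the falls of the small subunit up to 2 (without control library 3).

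The stalk of the large subunit, which recruits translation factors to the ribosome, is formed by Mrpl10, Mrpl11 and Mrpl12. Mrpl12 (NCBI gene 56282) stood at 57.1, 44.6 and 48.0 CPM in the control libraries and at 94.99, 87.8 and 88.5 CPM in the libraries labelled cKO. The groups were far apart, and the rise, from 49.9 ± 6.43 to 90.5 ± 3.94 CPM (SD, n = 3), was 1.81-fold (log2 0.86, SE 0.064, edgeR adjusted p = 1.37e-10). It was the largest rise of all 78 genes. Mrpl10, which anchors the stalk, had 30.4, 30.8 and 29.4 CPM in control and 34.6, 35.6 and 35.4 CPM in the libraries labelled cKO, a smaller rise without overlap (log2 0.22, SE 0.064, edgeR adjusted p = 0.0023). Mrpl11, at the base of the stalk, had 25.01, 22.2 and 24.7 CPM against 22.4, 24.9 and 25.7 CPM. These groups overlapped and no difference was called (log2 0.02, 95% interval -0.132 to 0.174, edgeR adjusted p = 0.826).

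The other large rises in the large subunit were in proteins with diverse places in it. Mrpl36, a very small homologue of a bacterial ribosomal protein, had 25.04, 24.2 and 25.5 CPM in control and 39.7, 43.5 and 45.4 CPM in the libraries labelled cKO. That is a 1.72-fold rise (log2 0.78, SE 0.065, edgeR adjusted p = 1.39e-17), with a gap between the groups larger than the spread within either. Mrpl19, another bacterial-type protein, had 18.5, 18.9 and 19.2 CPM against 31.6, 32.9 and 30.4 CPM (log2 0.74, SE 0.075, edgeR adjusted p = 5.13e-14). In a mouse annotation of another build its exons overlap 1962 bp of Gcfc2, and since no source used here gives the strand setting, reads of such overlapping genes cannot be told apart.

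Mrpl50, a mitochondria-specific protein, had 32.8, 30.8 and 28.9 CPM in control and 51.9, 48.4 and 49.3 CPM in the libraries labelled cKO (log2 0.70, SE 0.060, edgeR adjusted p = 5.31e-17). Mrpl16, a core protein that joins late in bacterial assembly, had 13.7, 17.0 and 17.8 CPM against 27.5, 24.6 and 26.3 CPM (log2 0.69, SE 0.087, edgeR adjusted p = 1.03e-10). Mrpl46, part of the central protuberance at the top of the large subunit, had 18.0, 17.3 and 17.7 CPM against 28.2, 26.1 and 29.3 CPM (log2 0.66, SE 0.080, edgeR adjusted p = 4.01e-11). In all of these the libraries labelled cKO lay above every control library.

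Members with a known task beyond the scaffold did not move alike. Mrpl45, which sits at the exit tunnel and ties the ribosome to the inner membrane, had 21.2, 18.2 and 21.4 CPM in control and 28.5, 27.0 and 28.6 CPM in the libraries labelled cKO, with no overlap (log2 0.47, SE 0.078, edgeR adjusted p = 3.02e-07). Mrpl44, which resembles RNase III, had 18.0, 21.1 and 19.5 CPM against 20.6, 20.8 and 19.2 CPM, with overlap and no call (log2 0.05, 95% interval -0.119 to 0.217, edgeR adjusted p = 0.637). Mrpl58, a peptidyl-tRNA hydrolase that frees stalled ribosomes, had 17.9, 16.3 and 15.9 CPM against 18.0, 17.9 and 17.9 CPM. It was not called either (log2 0.10, 95% interval -0.077 to 0.281, edgeR adjusted p = 0.338).

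**Figure D2:**
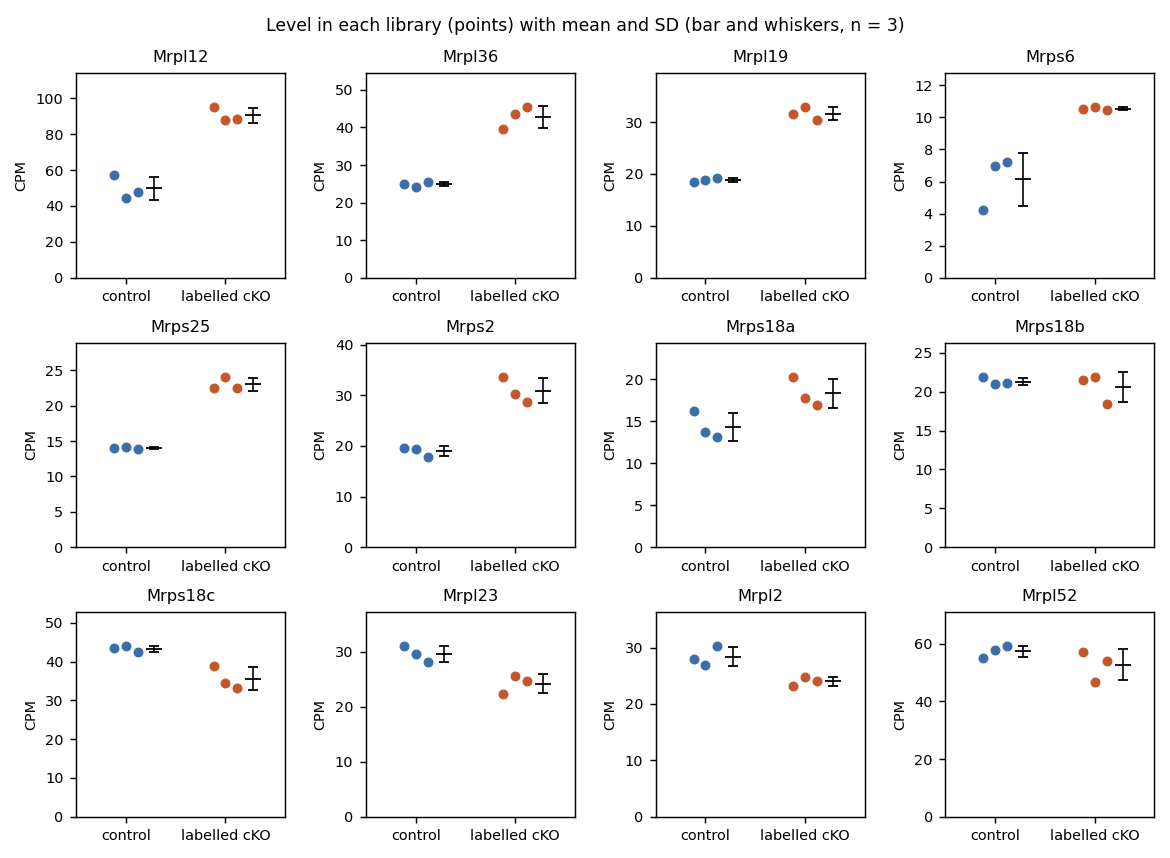
CPM (y axis, from 0) of 12 members in each control library and each library labelled cKO (points), with the mean and SD of each group (bar and whiskers, n = 3). Mrpl12, Mrpl36, Mrpl19, Mrps6, Mrps25 and Mrps2 rose at least 1.5-fold, while Mrps18c, Mrpl23 and Mrpl2 fell by smaller amounts.

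Of the 4 large-subunit genes called lower, Mrpl23 fell most. Mrpl23 encodes a protein at the mouth of the exit tunnel, and had 30.9, 29.6 and 28.1 CPM in control and 22.3, 25.5 and 24.8 CPM in the libraries labelled cKO (log2 -0.29, SE 0.074, edgeR adjusted p = 0.000493). Mrpl2, a conserved protein near the peptidyl transferase centre, had 27.98, 26.9 and 30.2 CPM against 23.1, 24.7 and 24.1 CPM (log2 -0.24, SE 0.074, edgeR adjusted p = 0.00339). Both were lower in every library labelled cKO, by 1.221- and 1.183-fold.

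Mrpl48, another protein of the central protuberance, had 36.9, 36.6 and 35.5 CPM against 32.9, 29.6 and 33.3 CPM (log2 -0.19, SE 0.064, edgeR adjusted p = 0.00905). Without the second library labelled cKO its fall was no longer called (log2 -0.13, edgeR adjusted p = 0.105). Mrpl52, a mitochondria-specific protein, had 55.1, 57.8 and 59.1 CPM in control and 57.2, 46.8 and 54.1 CPM in the libraries labelled cKO. It was the 1 called member whose groups overlapped (log2 -0.12, SE 0.054, edgeR adjusted p = 0.0481). Its call was lost without control library 2 or 3 (edgeR adjusted p = 0.0934 and 0.176) or without library 2 or 3 labelled cKO (edgeR adjusted p = 0.575 and 0.0621), and its log2 fold change was -0.18 without library 1 and -0.04 without library 2 labelled cKO. Mrpl23 and Mrpl48 each share their name with 1 listed pseudogene, and no source used here says how reads that align to several places were counted.

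In the small subunit, Mrps6, a homologue of a bacterial platform protein, rose most by fold. It had 4.25, 6.95 and 7.24 CPM in control and 10.5, 10.6 and 10.4 CPM in the libraries labelled cKO. The first control library held 156 counts against 249 and 266 in the others, while the libraries labelled cKO held 380, 386 and 380. The log2 fold change was 0.78 (SE 0.143, edgeR adjusted p = 2.71e-06), and 0.57 without that first control library (edgeR adjusted p = 0.0004). Its exons overlap Slc5a3 by 159 bp in the other-build annotation.

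Mrps25, a mitochondria-specific protein, had 14.1, 14.1 and 13.9 CPM in control and 22.5, 24.1 and 22.5 CPM in the libraries labelled cKO (log2 0.72, SE 0.088, edgeR adjusted p = 6.34e-11). Its exons overlap those of the nuclear receptor gene Nr2c2 by 4590 bp, the longest such overlap among the members. Mrps2, a conserved protein of the small subunit, had 19.6, 19.3 and 17.8 CPM against 33.6, 30.3 and 28.8 CPM (log2 0.71, SE 0.078, edgeR adjusted p = 1.15e-12). For both genes the lowest library labelled cKO was well above the highest control library.

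Mrps22, a mitochondria-specific protein whose loss causes inherited mitochondrial disease in people, had 18.4, 19.7 and 15.6 CPM in control and 24.8, 26.4 and 27.99 CPM in the libraries labelled cKO (log2 0.56, SE 0.084, edgeR adjusted p = 2.07e-08). Mrps7, which starts assembly of the head of the subunit in bacteria, had 39.2, 40.1 and 37.5 CPM against 53.8, 55.7 and 51.5 CPM (log2 0.46, SE 0.055, edgeR adjusted p = 1.97e-11). Mrps12, at the decoding centre, had 18.4, 17.8 and 18.1 CPM against 22.9, 23.4 and 23.5 CPM (log2 0.36, SE 0.082, edgeR adjusted p = 0.000101). The rise of Mrps12 was the smallest of these, yet its libraries were tightly grouped on both sides.

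Mammals have 3 genes for proteins related to bacterial protein bS18, and they did not share a direction. Mrps18a, whose product is part of the large subunit, had 16.2, 13.7 and 13.1 CPM in control and 20.3, 17.8 and 16.9 CPM in the libraries labelled cKO (log2 0.35, SE 0.098, edgeR adjusted p = 0.00122). Mrps18b had 21.9, 20.99 and 21.1 CPM against 21.5, 21.9 and 18.4 CPM, with overlap and no call (log2 -0.05, 95% interval -0.214 to 0.115, edgeR adjusted p = 0.625). Mrps18c fell without overlap, from 43.6, 43.9 and 42.5 CPM to 38.9, 34.6 and 33.3 CPM (log2 -0.29, SE 0.061, edgeR adjusted p = 3.53e-05), and was the 1 small-subunit gene called lower. The intervals of Mrps18a (0.163 to 0.547) and Mrps18c (-0.404 to -0.166) lay on opposite sides of 0, but the differences between the 3 genes were not tested.

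Mrps30, a large-subunit protein with a small-subunit name, had 25.9, 26.5 and 27.0 CPM in control and 28.8, 30.3 and 31.8 CPM in the libraries labelled cKO (log2 0.19, SE 0.070, edgeR adjusted p = 0.0133). Without the third library labelled cKO the call was lost (log2 0.16, edgeR adjusted p = 0.0702). Mrps36 carries the name of a ribosomal protein but is now known as a component of the 2-oxoglutarate dehydrogenase complex of the citric acid cycle. It had 11.4, 11.1 and 12.5 CPM against 11.9, 10.7 and 11.4 CPM, with overlap and no call (log2 -0.04, 95% interval -0.262 to 0.177, edgeR adjusted p = 0.761). It shares its name with 3 listed pseudogenes.

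The remaining members moved within narrower limits. In the large subunit 20 further genes were called higher by 1.134- to 1.475-fold: Mrpl13, Mrpl53, Mrpl40, Mrpl38, Mrpl39, Mrpl1, Mrpl28, Mrpl17, Mrpl54, Mrpl15, Mrpl42, Mrpl37, Mrpl35, Mrpl18, Mrpl43, Mrpl41, Mrpl14, Mrpl34, Mrpl57 and Mrpl51. A further 12 were not called (Mrpl21, Mrpl22, Mrpl24, Mrpl27, Mrpl3, Mrpl30, Mrpl32, Mrpl4, Mrpl47, Mrpl49, Mrpl55 and Mrpl9), with log2 fold changes of -0.10 to 0.22. In the small subunit Mrps17, Mrps35, Mrps27, Mrps5 and Mrps34 were called higher by 1.106- to 1.274-fold. Here 11 were not called (Mrps10, Mrps11, Mrps14, Mrps15, Mrps16, Mrps23, Mrps24, Mrps28, Mrps31, Mrps33 and Mrps9), at -0.13 to 0.21. The rises of Mrpl1, Mrpl13, Mrpl38, Mrpl40, Mrpl53, Mrps17, Mrps27 and Mrps35 were each lost in at least 1 fit with a library left out. Over the 30 members without a call, 25 had a 95% interval that lay wholly within a 1.25-fold change in either direction. The outermost bounds were a log2 fold change of 0.46 and -0.27.

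Levels per length differed widely among the members. FPKM (fragments per 1000000 counted, divided by gene length in kilobases) averaged over the 6 libraries ran from 3.05 for Mrps25 to 133.5 for Mrpl52, a 43.7-fold range, with a median of 18.8. This was above the median of all tested genes (5.57 FPKM) for 72 of the 78 genes. Of the 78 genes 8 reached 50 FPKM and 4 stayed under 5. After Mrpl52 came Mrpl33 (115 FPKM), Mrps18c (78.5 FPKM), Mrpl20 (75.7 FPKM) and Mrpl12 (71.7 FPKM). In the small subunit Mrps18c was followed by Mrps21 (54.7 FPKM) and Mrps26 (46.8 FPKM).

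FPKM was lower for longer members, and it is computed by dividing by that length. Lengths ran from 412 to 8707 bp with a median of 1412.5 bp, and Spearman's rho between FPKM and length was -0.759 over the 78 genes, which share the libraries. The change between groups was little related to either, with rho of -0.109 between log2 fold change and FPKM and 0.103 between log2 fold change and length. Genes are not independent replicates, and these are descriptions.

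Beside Mrpl12, Mrpl52 and Mrps18c, already described, the members with the highest FPKM in each subunit were Mrpl33, Mrpl20, Mrps21 and Mrps26. Mrpl33, a very small bacterial-type protein, had 54.96, 54.7 and 56.1 CPM in control and 50.9, 54.4 and 50.7 CPM in the libraries labelled cKO, without overlap but without a call (log2 -0.09, edgeR adjusted p = 0.13). Mrpl20 rose from 80.5, 75.4 and 77.2 CPM to 94.3, 93.9 and 92.0 CPM (log2 0.27, SE 0.040, edgeR adjusted p = 2.82e-08). Mrps21 rose from 26.4, 25.7 and 25.5 CPM to 28.2, 31.2 and 30.3 CPM (log2 0.21, SE 0.071, edgeR adjusted p = 0.00897). Mrps26 had 43.0, 43.7 and 47.6 CPM against 44.6, 43.8 and 47.4 CPM, with full overlap (log2 0.02, 95% interval -0.095 to 0.126, edgeR adjusted p = 0.829).

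Most ribosomal proteins that go by other names moved in the same direction as most members. Of 5 such genes 4 rose (80.0%, against 30.8% of all genes tested), and the median log2 fold change of the 5 was 0.47. Gadd45gip1, a large-subunit protein also called CRIF1, rose from 13.1, 13.2 and 13.5 CPM to 23.4, 22.3 and 22.4 CPM, 1.71-fold (log2 0.77, SE 0.090, edgeR adjusted p = 7.75e-12). The small-subunit proteins Chchd1 (1.42-fold) and Ptcd3 (1.39-fold) rose as well (edgeR adjusted p = 4.59e-10 and 6.76e-10). Dap3, a GTP-binding small-subunit protein, was lower in every library labelled cKO but was not called (log2 -0.10, edgeR adjusted p = 0.096).

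**Figure D3:**
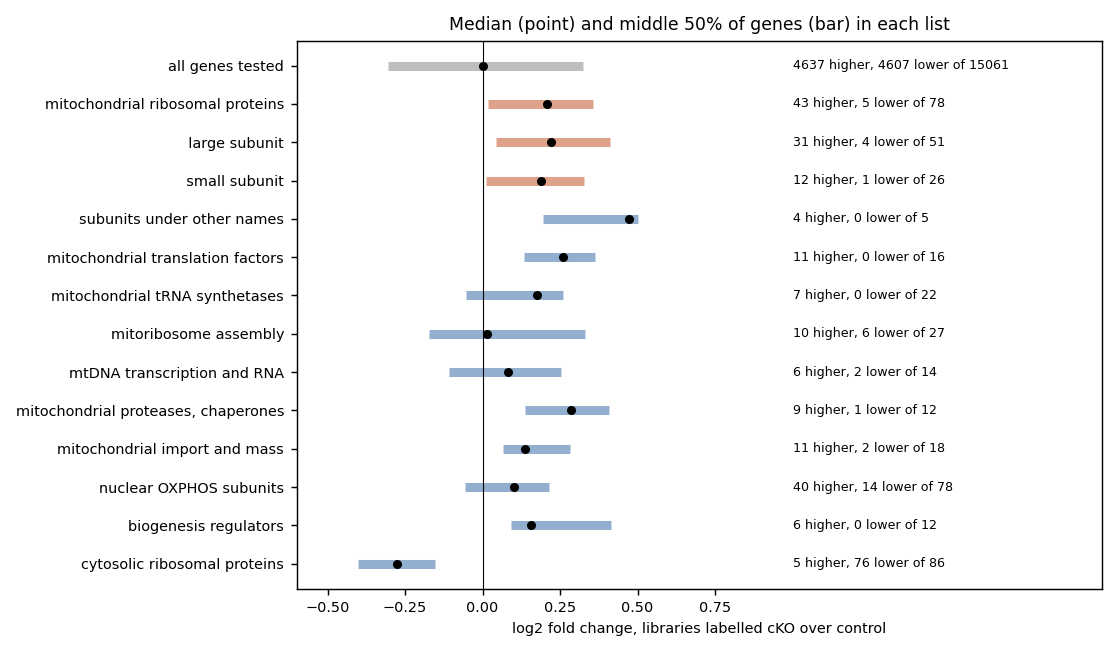
Median log2 fold change (point) and the middle 50% of genes (bar) in each gene list, libraries labelled cKO over control, with the counts of genes called higher and lower. The mitochondrial ribosomal protein genes have a median of 0.21 and the cytosolic ribosomal protein genes one of -0.28.

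The steps that surround the mitochondrial ribosome differed. Among 16 mitochondrial translation factors tested 11 rose and the other 5 were not called (median log2 0.26), and 7 rose without control library 1. The elongation factors Tsfm (log2 0.59, edgeR adjusted p = 4.12e-07) and Tufm (log2 0.44, edgeR adjusted p = 5.6e-10) and the translational activator Taco1 (log2 0.43, edgeR adjusted p = 0.000969) led them. Among 22 mitochondrial aminoacyl-tRNA synthetases, which charge the tRNAs, 7 (31.8%, near the 30.8% of all genes) rose and 15 were not called. Their median of 0.18 was 0.07 without the first library labelled cKO. Among them was Yars2, the tyrosyl-tRNA synthetase, at 0.68 (edgeR adjusted p = 3.18e-07).

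Assembly and rRNA modification genes were mixed, with 10 rises and 6 falls among 27 and a median of 0.02, which ran from -0.01 to 0.08 with 1 library left out. The rRNA methyltransferases Mrm3 (log2 0.70, edgeR adjusted p = 3.67e-07) and Mrm2 (log2 0.63, edgeR adjusted p = 0.000112) rose. Tfb1m, which dimethylates the small-subunit rRNA, fell from 7.02 ± 0.941 to 3.91 ± 0.365 CPM (log2 -0.85, edgeR adjusted p = 1.05e-05), and Mtg1, a GTPase of large-subunit assembly, fell by 0.53 on the log2 scale (edgeR adjusted p = 8.53e-06). Of 14 genes of mitochondrial DNA transcription and RNA processing 6 rose and 2 fell, with a median of 0.08 that ran from 0.05 to 0.14 with 1 library left out. Trmt10c rose (log2 0.52, edgeR adjusted p = 4.91e-10) while Hsd17b10 fell (log2 -0.39, edgeR adjusted p = 3.32e-08), although their products are partners in mitochondrial RNase P.

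Most called genes rose in the other mitochondrial lists as well. Over all genes tested, 30.8% were called higher and 30.6% lower. Of 12 proteases and chaperones 9 rose and 1 fell (median 0.29), with Hspd1, the matrix chaperonin, 1.71-fold higher (edgeR adjusted p = 9.48e-38). Of 18 import and mass genes 11 rose and 2 fell (median 0.14), and the 2 that fell were Samm50, of the outer membrane sorting machinery, and Cs, citrate synthase (log2 -0.40 and -0.17, edgeR adjusted p = 4.15e-12 and 2.41e-09). Of 78 nuclear subunits of the oxidative phosphorylation complexes 40 rose and 14 fell (median 0.10). Of 12 regulators of mitochondrial biogenesis 6 rose and 6 were not called (median 0.16), with Mycn at 0.73 and Pprc1 at 0.63 (edgeR adjusted p = 1.01e-07 and 3.91e-15). With the biological coefficient of variation set to 20%, 12.2% of all genes tested were called higher and 10.2% lower. At that setting 2 of 12 biogenesis regulators and 2 of 22 tRNA synthetases stayed higher. Only 1 stayed higher among 12 proteases and chaperones, 18 import and mass genes, 27 assembly genes and 78 oxidative phosphorylation subunits. The translation factors and the RNA processing genes had 0 (1 and 1 at an unadjusted p under 0.05). Among the assembly genes 1 stayed lower.

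The proteins of the cytosolic ribosome went the other way. Of 86 tested, 76 (88.4%, against 30.6% of all genes) were called lower in the libraries labelled cKO. Another 5 (5.81%, against 30.8%) were called higher. The median log2 fold change was -0.28, which ran from -0.28 to -0.25 under other scalings. With the coefficient of variation set to 20%, none of these calls was made (at an unadjusted p under 0.05, 1 higher and 9 lower), where 10.2% of all genes were still lower. Rps19, for example, fell by 0.51 on the log2 scale (edgeR adjusted p = 1.42e-44), and Rpl36al rose by 0.57 (edgeR adjusted p = 5.69e-31). The median of the mitochondrial ribosomal protein genes in the same fit was 0.21, and the difference between the lists was not tested.

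Many members start next to another gene on the opposite strand. In the GENCODE M21 annotation, which is of another build and was used only for which genes neighbour each other, 32 of the 78 members (41.0%) had a gene starting within 1000 bp in the opposite direction, against 13.5% of 14731 tested and annotated genes. Members with such a neighbour rose in 19 of 32 cases (median log2 0.23), and those without in 24 of 46 (median 0.20). Over 30 pairs with both genes tested, with the pair of Mrpl46 and Mrps11 counted once, 8 neighbours were called higher, 5 lower and 17 not called. Of all genes tested, 30.8% were called higher and 30.6% lower. Both genes rose in 6 pairs and both fell in 2, and in 1 the member rose while its neighbour fell. Over the pairs, which share the libraries, Pearson's r of the log2 fold changes was 0.294 and Spearman's rho 0.354, given as descriptions. Both include neighbours of low level whose changes are uncertain. Examples are Lrrc46 (0.404 CPM in control, 0.651 CPM in the libraries labelled cKO, log2 0.69, not called) and Zfp189 (1.38 and 2.18 CPM, log2 0.65, not called).

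The pairs named here were chosen after their values were seen. Mrpl51 (log2 0.56) starts 100 bp from the condensin gene Ncapd2, which rose by 0.76 (edgeR adjusted p = 6.83e-18). Mrpl57 (log2 0.55) starts 49 bp from Ska3, a kinetochore gene that rose by 1.02 (edgeR adjusted p = 6.67e-07). Its level was low, at 3.30 CPM in control and 6.70 CPM in the libraries labelled cKO. Mrpl27, which was not called (log2 0.16), starts 197 bp from Eme1, a DNA repair nuclease gene that had the largest rise of the neighbours (log2 1.29, edgeR adjusted p = 3.39e-05). Eme1 was low in both groups, at 1.3 CPM in control and 3.19 CPM in the libraries labelled cKO. Mrps18b, not called either (log2 -0.05), starts 45 bp from Ppp1r10, which rose by 0.37 (edgeR adjusted p = 4.83e-07). Mrpl36 (log2 0.78) starts 29 bp from Ndufs6, a complex I subunit gene that rose by 0.19 (edgeR adjusted p = 0.00114), with an exon overlap of 30 bp. Mrpl41 (log2 0.47) faces Pnpla7, which fell by 0.43 (edgeR adjusted p = 0.000379). Mrpl2 and its neighbour Klc4 both fell (log2 -0.24 and -0.29, edgeR adjusted p of Klc4 = 0.0242). Mrpl49, which was not called (log2 0.15), faces Fau, the gene of a cytosolic ribosomal protein, which fell by 0.46 (edgeR adjusted p = 3.33e-38).

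**Figure D4:**
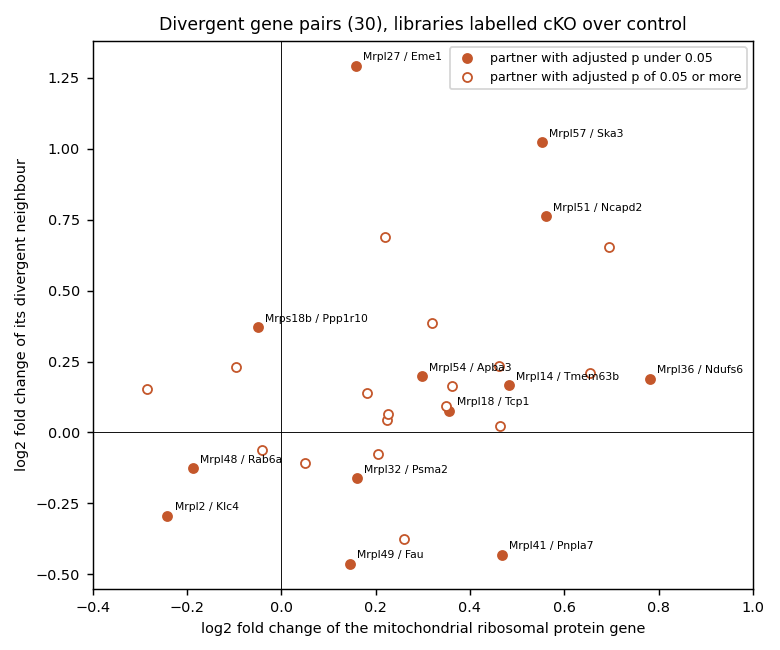
Log2 fold change of each mitochondrial ribosomal protein gene (x axis) against that of the gene starting within 1000 bp in the opposite direction (y axis) for 30 pairs, libraries labelled cKO over control. Filled points mark a neighbour with an adjusted p under 0.05, 8 above 0 and 5 below.

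Exons of 21 members overlapped those of another gene in that annotation. Of these 11 (52.4%) rose and 1 fell (median log2 0.22), and of the 57 without overlap 32 (56.1%) rose and 4 fell (median 0.21). Of all genes tested, 30.8% rose and 30.6% fell. A called rise of at least 1.5-fold was found in 5 of the 21 and in 4 of the 57, beside 12.3% of all genes tested. With overlap these were Mrpl36, Mrpl19, Mrpl46, Mrps6 and Mrps25, and without it Mrpl12, Mrpl50, Mrpl16 and Mrps2. The smaller rise of Mrps22 (1.474-fold) was also in a member without overlap. The difference between these sets was not tested.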

How the data were processed

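RNA of 6 tail skin libraries, 3 control and 3 labelled cKO by genotype in the labels, was analysed. The authors deposited whole-number counts per gene, not normalized, and FPKM. For each of the 18180 genes FPKM matched counts over a gene length and the library's total (relative tolerance 1e-06). The submitters' processing notes name fastp, HISAT2, HTSeq and the mm39 build; versions, annotation and strand setting: not given in the sources used here. In R 4.3.3, edgeR 4.0.16 was run on the counts (filterByExpr with a minimum count of 10, TMM scaling, robust quasi-likelihood fit, two-sided, group as the only term), with Benjamini-Hochberg adjustment over 15061 genes and a threshold of 0.05. CPM use TMM-scaled totals, and 3 counts correspond to 0.0810 to 0.0837 CPM, counting error only. Standard errors are the log2 fold change over the square root of F. The script was tested on simulated data. Exact permutation of 3 libraries against 3 reaches 0.1 at best.

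The members and lists were chosen with earlier results of these data known. Named with values in every library were, per subunit, the 6 largest called rises and falls, the 3 highest FPKM and members with known roles; from other lists, up to 3 called genes in the main direction and 2 in the other. Genes encoded by mitochondrial DNA were not analysed here. Of 17 translation factors listed 16 were matched. Neighbours came from GENCODE M21 and promoters from RefSeq (GRCm38.p6), both of another build than the counts. Same-numbered libraries did not deviate together (correlations of -0.0154, -0.0155 and -0.0577), so the numbers were not taken as pairs. Alternatives were DESeq2 1.42.0, limma 3.58.1 (voom, and log2 of FPKM with a pseudocount of 1 or 0.1), RLE or no scaling, other filters, an assumed spread, a replicate block and leaving out each library.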

Additional observations from a re-analysis of the deposited data

How the results depend on the processing

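The 43 rises and 5 falls among the 78 genes were recomputed under the alternatives, and no gene was called in the opposite direction in any of them. RLE scaling, DESeq2, voom, other filters, no scaling and FPKM gave 43 to 50 rises and 4 or 5 falls, and the 43 rises were all among those called. The fall lost was that of Mrpl52. With the spread assumed at 20%, 1830 genes were higher and 1531 lower, with 9 and 0 members (15 and 0 at an unadjusted p under 0.05). At 40% these were 458 and 316 genes, with 0 and 0 members (0 and 0 unadjusted). With a fold of at least 1.5 required, 1860 and 1555 genes and 9 and 0 members passed. Leaving out each library in turn gave 39 to 42 rises and 3 to 5 falls, the 3 without the second library labelled cKO, where Mrpl48 and Mrpl52 were lost. Over all genes it gave 4372 to 4478 higher and 4309 to 4369 lower. The median log2 fold change of the members, 0.21, was 0.2307 without scaling, 0.2103 without a filter, 0.2186 and 0.2295 on FPKM with a pseudocount of 1 and 0.1, and 0.1947 to 0.2155 with a library left out. A replicate block, though the numbers did not pair the libraries, gave 45 rises and 5 falls. Of 1796 values of named genes under alternatives 1642 kept their call and direction, 152 lost the call, 2 gained one and none reversed. Depth limits the members little, since the lowest count was 156.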
